A study of Mus musculus with 4 samples.

Results

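The genes of epidermal growth factor (EGF) signalling are described here by the open chromatin around them in mouse hair follicle stem cells. The group comprises 10 genes: the receptor genes Egfr, Erbb2, Erbb3 and Erbb4, the ligand genes Areg, Ereg, Hbegf and Tgfa, and the negative regulator genes Lrig1 and Errfi1. An accessible region was counted for a gene when it shared at least 1 base with the RefSeq bounds of the gene, extended by 50 kb on either side. By this rule 121 of the 74777 regions (peaks) of the study lay around the 10 genes. The assay was ATAC-seq, which uses Tn5 transposase to place adapters where DNA is not shielded by nucleosomes. Back skin of females aged 30 days (postnatal) was used, and cells were sorted for the H2BGFP reporter, CD34 and CD49f and against Sca-1. There were 2 genotypes. The Foxc1 knockout carried K14-H2BGFP, K14Cre and Foxc1 fl/fl, so that Foxc1, a forkhead transcription factor gene, is removed wherever the keratin 14 promoter drives Cre. The control carried K14-H2BGFP and Foxc1 fl/fl without Cre, so both genotypes shared the reporter and the floxed alleles. Each genotype was 1 library sequenced in 2 runs, and the sources used here do not say whether animals were pooled.

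The 4 runs share a single list of region coordinates on mm10. It holds no read count, score or genotype for any region, so no value below belongs to the knockout or to the control, and no difference between them could be measured. The depth behind a region is unknown, and ground with no region cannot be told apart from ground that was sequenced too thinly. All values are counts, widths and positions in this one list, with no test. Where a background is given, it is the same measure over 21887 protein-coding genes, unless another set is named. All 9 markers of the sorted population that were examined (Krt14, Krt5, Itga6, Cd34, Lgr5, Sox9, Lhx2, Nfatc1 and Krt15) had a region within 1 kb of a gene end, against 57.6% of all protein-coding genes. Of the 4 with a RefSeq promoter window, 3 had a region there and Krt14 had none. Over all protein-coding genes with such a window the share was 55%. Of the markers of other cells, Ptprc and Cd3e of immune cells, Pecam1 and Cdh5 of endothelium, Pdgfra of fibroblasts and Ly6a, which encodes Sca-1, had none at an end. Pecam1 and Cdh5 nevertheless had 8 regions each within 50 kb, or 4.97 and 5.60 per 100 kb, above the 2.88 of Krt15, the 4.63 of Lgr5 and the median of 3.79 over all genes. Col1a1 of fibroblasts and Mitf and Dct of melanocytes each had a region at an end. Mitf and Dct also had a region at a RefSeq promoter, and Ptprc, Cd3e and Pdgfra had none there. Whether such cells added regions near the EGF pathway genes was not tested.

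Ligands of this family are made as membrane-anchored precursors and are released by proteases, chiefly ADAM17. They bind receptor tyrosine kinases of the ErbB family, which pair up, phosphorylate each other and pass the signal to the RAS-MAPK and PI3K pathways. Inhibitors such as LRIG1 and the product of Errfi1 dampen the receptors once they are active. In skin, EGF receptor signalling controls keratinocyte growth and the shape and cycling of hair: mice lacking TGF-alpha, and mice with an impaired EGF receptor, have wavy coats.

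Promoter sequences are shown for starts with an accessible region and for starts without one, and because an open pair of them shared the same sequence elements. The windows of Erbb4 and Tgfa are not shown. RefSeq (GRCm38.p6) gave a promoter window, 250 bases before to 50 bases after a transcription start, for 7 of the 10 genes, with 8 windows in all since Errfi1 has 2 starts. Capitals mark matches on either strand to the TATA box (TATAAA), the GC box (GGGCGG), the CCAAT box (CCAAT) and the cyclic AMP response element or CRE (TGACGTCA). Windows are given 5′ to 3′ on the strand of the gene. The first 4 lay wholly inside an accessible region, and the last 2 had no region.
Areg, chr5:91139349-91139648, plus strand: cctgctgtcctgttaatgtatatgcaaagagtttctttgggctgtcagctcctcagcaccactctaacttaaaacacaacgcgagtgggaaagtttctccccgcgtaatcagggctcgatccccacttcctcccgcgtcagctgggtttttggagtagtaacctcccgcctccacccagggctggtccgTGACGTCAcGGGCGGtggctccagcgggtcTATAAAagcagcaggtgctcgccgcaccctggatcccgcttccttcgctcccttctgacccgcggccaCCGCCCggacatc
Errfi1, downstream start, chr4:150854820-150855119, plus strand: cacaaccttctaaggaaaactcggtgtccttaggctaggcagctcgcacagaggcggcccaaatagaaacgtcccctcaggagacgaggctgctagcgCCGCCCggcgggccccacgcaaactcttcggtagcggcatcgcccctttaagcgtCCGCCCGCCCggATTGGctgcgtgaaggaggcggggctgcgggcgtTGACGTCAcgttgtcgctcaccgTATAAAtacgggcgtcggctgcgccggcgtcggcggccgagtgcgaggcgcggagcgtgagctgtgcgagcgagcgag
Egfr, chr11:16751953-16752252, plus strand: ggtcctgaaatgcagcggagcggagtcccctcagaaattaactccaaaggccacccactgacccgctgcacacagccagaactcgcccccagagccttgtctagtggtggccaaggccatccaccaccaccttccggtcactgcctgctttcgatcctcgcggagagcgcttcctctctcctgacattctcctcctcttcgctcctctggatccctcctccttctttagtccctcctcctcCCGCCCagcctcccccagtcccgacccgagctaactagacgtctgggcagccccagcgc
Lrig1, chr6:94700096-94700395, minus strand: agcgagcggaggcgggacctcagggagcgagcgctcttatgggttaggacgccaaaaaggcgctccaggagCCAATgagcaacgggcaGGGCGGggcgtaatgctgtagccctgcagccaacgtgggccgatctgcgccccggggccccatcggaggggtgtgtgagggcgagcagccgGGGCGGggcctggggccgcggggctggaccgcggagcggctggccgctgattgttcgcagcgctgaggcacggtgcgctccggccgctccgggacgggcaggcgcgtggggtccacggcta
Errfi1, upstream start, chr4:150853546-150853845, plus strand: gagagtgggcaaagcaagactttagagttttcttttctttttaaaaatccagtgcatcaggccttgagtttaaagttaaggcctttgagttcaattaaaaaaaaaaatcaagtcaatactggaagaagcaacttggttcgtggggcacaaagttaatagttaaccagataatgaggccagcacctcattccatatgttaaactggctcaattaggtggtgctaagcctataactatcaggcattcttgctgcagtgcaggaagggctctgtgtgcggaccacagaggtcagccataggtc
Erbb2, chr11:98412234-98412533, plus strand: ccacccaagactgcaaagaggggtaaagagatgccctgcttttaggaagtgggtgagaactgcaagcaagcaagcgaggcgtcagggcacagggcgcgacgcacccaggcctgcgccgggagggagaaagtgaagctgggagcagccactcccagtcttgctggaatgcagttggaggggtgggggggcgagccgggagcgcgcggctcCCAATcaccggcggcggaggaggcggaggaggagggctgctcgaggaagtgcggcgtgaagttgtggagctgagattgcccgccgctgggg

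Of the 7 members with a promoter window, 5 had an accessible region at a promoter: Egfr, Erbb4, Areg, Lrig1 and Errfi1. Over all 17492 protein-coding genes with such a window the share was 55%. By window, 5 of the 8 were covered, against 53.2% of the 21263 windows of protein-coding genes. In each of the 5 genes the region covered the whole 300-base window. The regions over the starts of Erbb4, Egfr and Lrig1 were broad, at 2959, 2536 and 2331 bp. Those over Errfi1 and Areg were 905 and 827 bp wide, below the median of 1372 bp for regions covering any protein-coding promoter. At Errfi1 only the downstream start was covered. Its upstream start, 888 bp from the nearest region, had a GC content of 42.0% with 2 CpG dinucleotides, against 66.7% with 41 CpG dinucleotides at the downstream start.

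The promoters of Erbb2 and Tgfa had no region. The nearest one lay 6330 bp from the Erbb2 start and 14207 bp from the Tgfa start, while the median distance over all uncovered protein-coding promoters was 15929 bp. Both windows were rich in CpG. The Erbb2 promoter held 66.0% GC and 21 CpG dinucleotides, and the Tgfa promoter 70.7% GC and 24 CpG dinucleotides. Uncovered protein-coding promoters had medians of 49.3% and 4, and covered ones of 61.7% and 22, so in base composition these 2 windows lay with the covered promoters.

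The open promoters of the ligand gene Areg and of the inhibitor gene Errfi1 shared an arrangement of sequence elements. Each held a TATA box, at position -31 in Areg and -28 in Errfi1, counted from the start as +1. Each also held a CRE a short way upstream, at position -61 in Areg and -51 in Errfi1, and at least 1 GC box. TATAAA was found in 13.6% of the 32851 promoter windows of all gene types, TGACGTCA in 1.79% and both together in 56 windows, or 0.170%. Of these 56 windows 34 (60.7%) were covered by a region, against 41.2% of all windows. Among windows with a GC box, which both promoters also held, 74.0% were covered. Taken singly, TATAAA was in 6.79% of covered windows and 18.4% of uncovered ones, and TGACGTCA in 3.22% and 0.792%. None of the other 6 member windows held TATAAA or TGACGTCA.

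GC boxes were found in 5 of the 8 member windows, namely those of Egfr, Areg, Tgfa, Lrig1 and the downstream start of Errfi1. Over all windows the share was 35.7%, with 64.1% where the window had a region and 15.7% where it had none. The CCAAT box was present at Erbb2, Lrig1 and the downstream Errfi1 start, and in 37.4% of all windows. Letters of the E-box (CANNTG) were found in 4 of the 8, against 72.3% of all windows. With a region that share was 62.9%, and without one 78.9%. The TEAD motif (GGAATG) was found at Erbb2 and at the upstream Errfi1 start, against 14.7% of all windows. Letters for AP-1 (TGANTCA), forkhead factors (TGTTTAC) and TCF/LEF (CTTTGAA) were in none (0) of the 8 windows, and in 7.81%, 3.65% and 5.14% of all windows. Both strands were searched. The search covered only these windows, not the rest of the regions.

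The 10 genes differed widely in how many regions surrounded them. Scaled to window length, the members had a median of 7.47 regions per 100 kb, against 3.79 over all protein-coding genes (quartiles 1.85 and 6.12), and 7 of the 10 lay above that overall median. Egfr had the highest density, at 13.0 per 100 kb, followed by Errfi1 with 10.4, Hbegf with 9.92 and Lrig1 with 9.71. Ereg had 7.56, a value that rests on the outer part of its window, and Erbb3 had 7.37. The group median lies between the values of Ereg and Erbb3. Of 9 regions each, 3 at Ereg and 2 at Erbb3 had the member as nearest protein-coding gene. Over the group this held for 93 of the 121 regions. Regions nearer to a neighbour were counted in the same way for the background. With extensions of 25 kb, in shorter windows, 3 regions were counted at Ereg and 5 at Erbb3, each in place of 9. The covered share of Ereg was then 2.05%, in place of 5.97%, while that of Erbb3 was 12.9%, in place of 11.3%. Areg had 4.59, Tgfa 3.32, Erbb2 3.19 and Erbb4 1.44. Bases covered by regions made up a median of 6.39% of the member windows, against 3.16% over all genes. By this measure Egfr (12.7%), Hbegf (11.3%) and Erbb3 (11.3%) led, and Erbb4 (0.952%) came last.

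**Figure D1:**
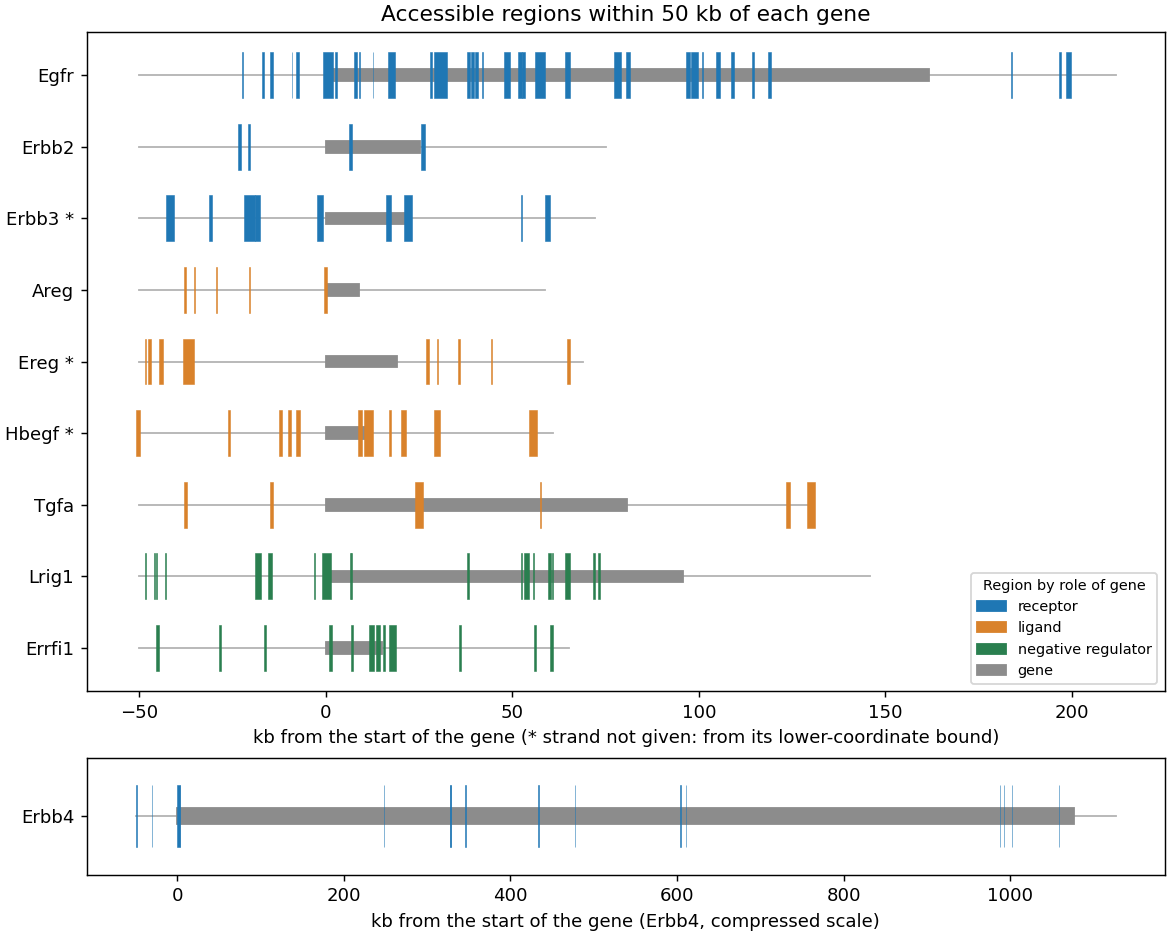
Each row is 1 gene, with position in kb from its start, or from its lower-coordinate bound where marked by an asterisk, on the x axis. Grey bars are genes, thin lines the 50 kb extensions and coloured blocks accessible regions drawn to scale with a thin outline. Regions are scattered over the first 119.4 kb of Egfr and are absent from its last 42.3 kb, Ereg has none inside the gene, and Erbb4, on a compressed axis, has long empty stretches.

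Egfr encodes the EGF receptor itself, at chr11:16752203-16913907. It had 34 regions in its window, at percentile 99.6 of all protein-coding genes by count. Among the 1469 genes whose length was within 1.5 times that of Egfr, the median count was 8, and 16 genes, Egfr included, had 34 or more. Inside the gene lay 26 regions, which covered 17.2% of it, compared with 5.27% of the flanks. The median share of a gene covered was 2.27% over all protein-coding genes. The regions were not spread evenly along Egfr. A run of 24 regions with gaps under 12.5 kb extended over 103.9 kb, beginning with a region centred 22.3 kb upstream of the start. After the last internal region, 42.3 kb of the gene up to its far end held none. Egfr was the only member in a run of 10 or more regions, which 3.41% of protein-coding genes overlapped.

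The widest region of the whole group lay inside Egfr. It spanned 3282 bp at chr11:16781353-16784634, with its midpoint 30.8 kb downstream of the start. A second broad internal region, of 2792 bp at chr11:16808264-16811055, lay 57.5 kb downstream, and the region over the start itself was 2536 bp wide. In all, 11 of the 34 regions were at least 1000 bp wide. Upstream of the start, 5 regions of 200 to 922 bp lay 7.21 to 22.2 kb outside the gene. Beyond the far end there were 3, all nearer to the neighbouring gene Fbxo48, so that 31 regions had Egfr as their nearest protein-coding gene. The gene table gives no exons, so introns and exons were not distinguished.

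Erbb2 encodes the receptor that has no known ligand of its own and acts as a partner of the others. Located at chr11:98412484-98437716 among 7 neighbouring protein-coding genes, it had 4 regions in its window, at percentile 39.1 by count. Just 1 of these, of 648 bp at chr11:98418814-98419461, lay inside the gene, 6.65 kb from the start. A region of 1064 bp began 453 bp beyond its far end and covered the promoter of Mien1, a gene on the opposite strand. The other 2, of 632 and 706 bp, lay at Pgap3, more than 20 kb upstream. Erbb2 was thus counted as having a region at a gene end, but that region sat at the start of another gene.

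Erbb3 encodes a receptor for neuregulins with little kinase activity. It lies at chr10:128567523-128589635, and 9 regions with a median width of 1344 bp surrounded it, at percentile 83.7 by density. Most belonged to its surroundings: 5 of the 9 covered promoters of the neighbours Esyt1, Zc3h10, Rpl41, Pa2g4 and Rps26, and 2 had Erbb3 as their nearest protein-coding gene. Those were a region of 2117 bp across its upper-coordinate bound, at chr10:128588630-128590746, and one of 1344 bp inside the gene. The second region at an end of Erbb3, of 1656 bp and 605 bp outside the lower-coordinate bound, was the one over the Pa2g4 promoter.

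Erbb4 encodes a receptor for neuregulins and for some EGF-type ligands. The gene is 1077 kb long, at chr1:68031884-69108576, with no other protein-coding gene in its window. It had 17 regions, at percentile 96.7 by count but 19.9 by density, and at percentile 43.2 by density among the 110 genes of similar length. The median width was 428 bp, and 6 of the 17 regions reached 500 bp. The region over the start was the exception, at 2959 bp the second widest of the group. Within the gene the remaining regions were few and far apart, and the longest stretch without one measured 376.8 kb. A set of 3 regions, of 319, 786 and 453 bp, lay close together about 327 to 329 kb downstream of the start.

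Erbb4 and Egfr thus differed most among the 4 receptor genes in density, at 1.44 and 13.0 regions per 100 kb, although each had a broad region over its start. The 4 receptor windows together held 64 regions with a median width of 712 bp, the 4 ligand windows 26 with a median of 895.5 bp and the 2 negative regulator windows 31 with a median of 616 bp.

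**Figure D2:**
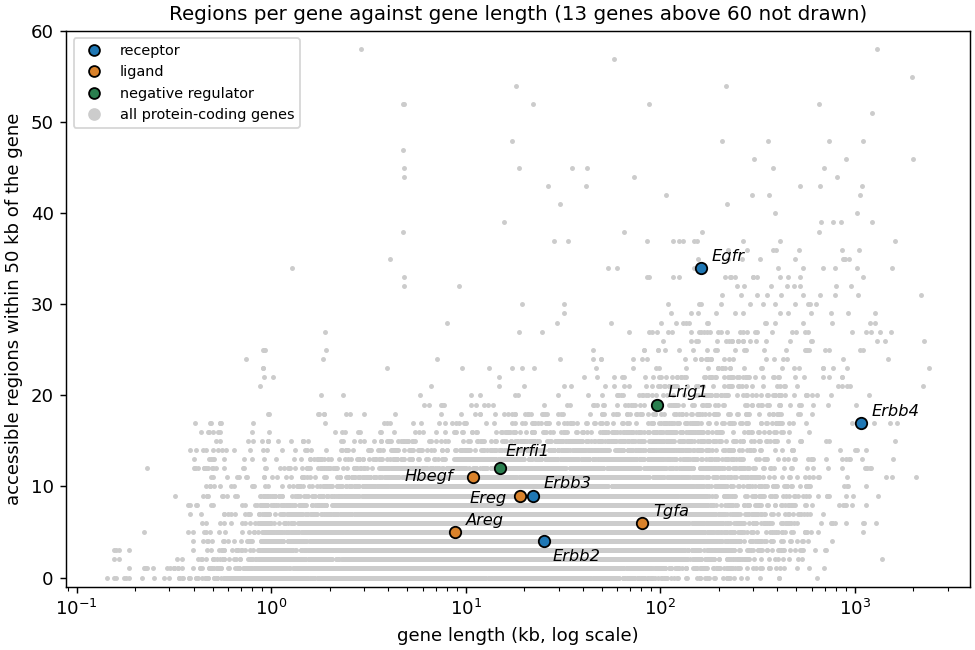
The number of accessible regions within 50 kb of a gene (y axis) is plotted against gene length in kb (x axis, log scale) for all protein-coding genes in grey and for the 10 members in colour. A total of 13 genes with more than 60 regions are not drawn. Egfr with 34 regions and Lrig1 with 19 stand towards the top of the genes of their length, and Erbb2 with 4 and Tgfa with 6 do not.

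Of the ligand genes, Hbegf had the most regions. It encodes heparin-binding EGF-like growth factor, a ligand of the EGF receptor and of ErbB4, at chr18:36504927-36515805. Its window held 11 regions, at percentile 94.0 by density, and 10 of them were at least 500 bp wide. A region of 2447 bp covered the upper-coordinate bound, with another of 1052 bp just inside it. These 2 and the next 3 above the gene formed a run of 5 regions over 21.9 kb. Below the gene, 3 regions of 865 to 965 bp lay 6.93 to 11.7 kb from it. Hbegf was the nearest protein-coding gene for 5 of the 11, the others lying nearer to Pfdn1, Slc4a9 or Ankhd1.

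Areg and Ereg, which encode the ligands amphiregulin and epiregulin, are neighbours on chromosome 5, and all 5 regions in the Areg window also lay in that of Ereg. Areg, at chr5:91139599-91148432, had the region of 827 bp over its start, at chr5:91139192-91140018. Its other 4 regions, 20.3 to 37.4 kb upstream, were 233 to 711 bp wide. Ereg, at chr5:91074617-91093649, was the only member with no region inside the gene, whereas 67% of protein-coding genes had at least 1. It lay within a stretch of 62.1 kb with no region. The nearest was 7868 bp above it, and 3 of the 9 regions in its window had Ereg as their nearest protein-coding gene. The widest of the 9, of 2917 bp at chr5:91036505-91039421, lay 35.2 kb below Ereg and nearer to Epgn, the gene of the ligand epigen.

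Tgfa encodes transforming growth factor alpha, an EGF receptor ligand of keratinocytes, at chr6:86195038-86275744. It had 6 regions in its window, at percentile 43.8 by density, and none within 1 kb of either gene end. Inside the gene lay a region of 2241 bp at chr6:86218907-86221147, its midpoint 24989 bp from the lower-coordinate bound, and another of 373 bp. Upstream, a region of 897 bp ended 14023 bp from the gene. The other 3 were 37.1 kb upstream and 42.7 and 48.3 kb beyond the far end.

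Both negative regulator genes were densely surrounded. Lrig1 encodes a transmembrane protein that restrains ErbB receptors and marks stem cells of the upper hair follicle. It lies at chr6:94604529-94700298 on the minus strand. Its 19 regions placed it at percentile 97.6 by count, and all 19 had Lrig1 as their nearest protein-coding gene. Of 2394 genes of similar length, with a median of 7 regions, 104 had as many or more, Lrig1 included. Upstream of the start lay 7 regions, the widest of them 1766 bp at chr6:94717487-94719252, 17.2 kb outside the gene. Inside the gene lay 12, and 8 of these formed a run of 21.2 kb, with midpoints 52.5 to 73.3 kb from the start. These regions were mostly narrow: 7 of the 19 reached 500 bp, and the gene's median width was 448 bp.

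Errfi1 encodes a cytoplasmic inhibitor, also called Mig6 or RALT, that binds the kinase domain of the active EGF receptor. This short gene of 15.1 kb, at chr4:150853796-150868889, had 12 regions, all of them at least 500 bp wide, at percentile 95.1 by density. Regions covered 24.8% of the gene, the highest share among the members, compared with 6.85% of its flanks. A run of 6 regions extended over 17.98 kb, from the downstream start to past the far end. Regions lay at both ends, with one of 1023 bp just inside the far end, one of 776 bp beginning 153 bp outside it and the widest, of 1897 bp at chr4:150870763-150872659, 1874 bp outside it. A further 3, of 537 to 793 bp, lay 15.9 to 44.7 kb upstream. Errfi1 was the nearest protein-coding gene for 9 of the 12, and Park7 for the other 3.

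**Figure D3:**
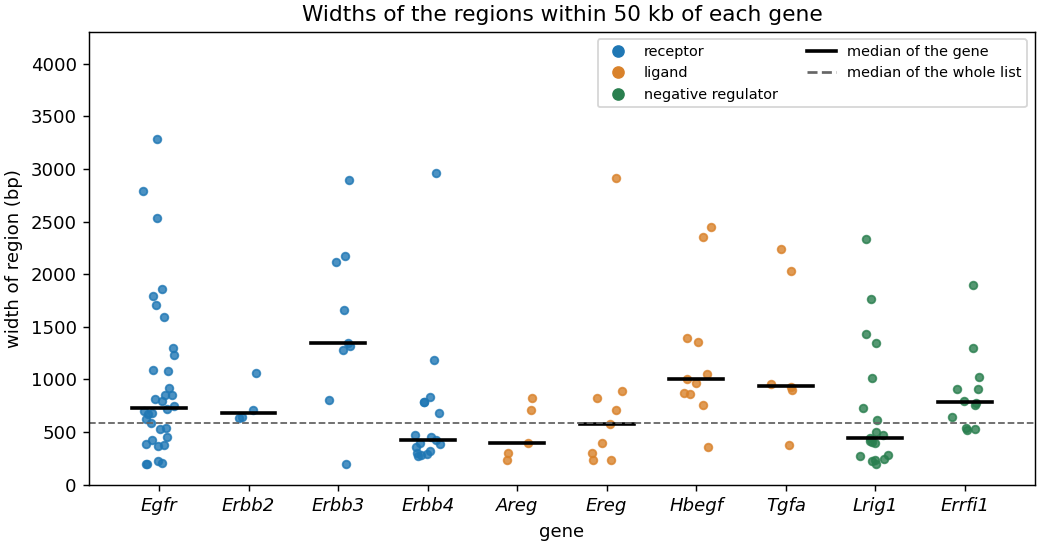
Points are the widths in bp (y axis) of the regions in the window of each gene (x axis), black bars the median of each gene and the dashed line the median of the whole list, 587 bp. The 5 regions shared by Areg and Ereg are drawn for both. Medians ranged from 401 bp at Areg to 1344 bp at Erbb3, and the widest region, 3282 bp, lay at Egfr.

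Regions around the members had a median width of 757 bp (quartiles 412 and 1187 bp), against 587 bp (quartiles 341 and 1025 bp) over the whole list. A width of at least 2000 bp was reached by 13 of the 121 regions (10.7%), against 4.94% of the list. Those of 2172, 2892, 2917, 2351 and 2028 bp were nearest to Esyt1, Zc3h10, Epgn, Ankhd1 and Fam136a, in that order. The rest had a member as nearest protein-coding gene. Widths were compared with the whole list, not with regions within 50 kb of other genes. Of these 121 regions, 65 overlapped a member gene and 22 lay within 1 kb of an end of some protein-coding gene, whether or not a member. The matching shares over the whole list were not computed, so neither count can be read as high or low. Within 1 kb of a member's own ends, 8 of the 10 genes had a region, against 57.6% of all protein-coding genes. The exceptions were Ereg and Tgfa. Regions at both ends were found for Erbb3 and Errfi1, against 8.14% of genes. The limit of the rule fell between a region 49866 bp from Hbegf, the farthest that was counted, and one 50195 bp from Areg, the nearest that was not.

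Other genes of the pathway mostly had an accessible end too. Of 58 genes listed beside the members, 52 (89.7%) had a region within 1 kb of a gene end, against 57.6% of all protein-coding genes. These included all 21 genes of the adaptors and of the RAS-MAPK and PI3K relay, all 18 further negative regulators and all 8 target transcription factors. The 6 without were the ligand genes Egf, Nrg1, Nrg2, Nrg3 and Nrg4 and the gene of the transport factor Rhbdf2. Among the other ligands Btc and Epgn had one. Gene bounds span all transcripts, so a start inside a gene is not an end: Egf had no region at its ends but one at a RefSeq promoter. The protease genes Adam10 and Adam17, which act on ligand precursors, both had an accessible end.

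By density the target factors led the listed classes, with a median of 9.50 regions per 100 kb, and all 8 lay above the median of all genes. These were short genes, of 1.84 to 18.6 kb, and the class values were not matched for gene length. Further negative regulators had a median of 5.06, the adaptors and relay 4.56, shedding and transport 4.66 and the other ligands 3.43, with 3.79 over all protein-coding genes. The 5 densest of the 58 were Ets2, a transcription factor gene, with 16.9 per 100 kb, Dusp6, which encodes a phosphatase of ERK, with 13.4, and Cblc, a ubiquitin ligase gene of the Cbl family, with 12.8. The adaptor gene Shc1 followed with 11.7 and Lrig3, a relative of Lrig1, with 11.4. Lrig2, the third gene of that family, had 3.80. Nrg1, though 1084 kb long like Erbb4, had 43 regions, and Nrg3, 1108 kb long, had 6.

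**Figure D4:**
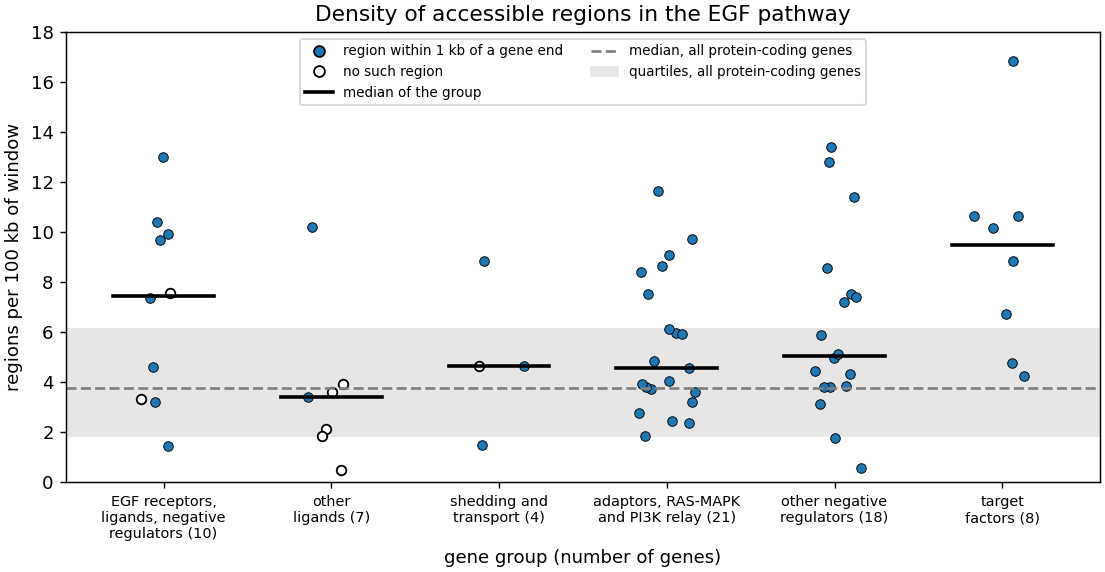
Each point is a gene, placed by its accessible regions per 100 kb of window (y axis) in the 10 members and the 5 further classes of the pathway (x axis). Filled points have a region within 1 kb of a gene end and open points have none. Bars are group medians, and the dashed line and grey band are the median (3.79) and quartiles of all protein-coding genes. Of the 7 other ligands 5 are open points, and all genes of the last 3 classes are filled.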

How the data were processed

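The authors deposited 1 list of 74777 region coordinates (chromosome, start, end) for the series. The submitters' processing notes name the aligner Bowtie2, the peak caller MACS2 and bedtools, with the build mm10. Not given in the sources used here are versions, settings, read filters, any Tn5 offset, read depth and whether reads were pooled. Starts were converted to 1-based positions, and no region was removed.

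Gene bounds came from a RefSeq table of GRCm38.p6, which shares its chromosome coordinates with mm10, and promoters from a RefSeq table that also gives strand. That table had no window for Erbb3, Ereg and Hbegf, and no promoter sequence from chromosome 18 is shown. Regions in each window were counted with Python 3.11.15 and pandas 2.3.3. All protein-coding genes that the gene table places on a chromosome were kept as background. Some of them, such as Ren2 at chr1:159748-169505, are placed at the very start of chromosome 1 and had 0 regions in their windows. Whether regions could be called there was not examined. A percentile is the share of protein-coding genes with a lower value, with ties split evenly. Counting and motif search were tested on simulated data. No sample column was left unused (0).

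The members and the pathway list were chosen with earlier results of these data known. All 10 members are named, with pathway genes that lacked an end region and the 5 densest. Other extensions, end windows, overlap rules and width limits were tried as alternatives.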

Additional observations from a re-analysis of the deposited data

How the results depend on the processing

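All 17 summary values obtained under an alternative setting stayed within 1.5 times the reported one. Several could not have risen that far. These were the end counts of 8 of 10 and 52 of 58, the promoter count of 5 of 7 and the median percentile of 84.3. The median number of regions per 100 kb was not recomputed with other extensions, width limits or the nearest-gene rule. The distinct regions numbered 95 with 25 kb extensions, 159 with 100 kb, 120 by midpoint, 82 at 500 bp or wider and 93 where the member was the nearest protein-coding gene. Members with a region at an end numbered 8 with end windows of 500 and 2500 bp and 7 by midpoint. The shares of all protein-coding genes under these settings were 54.4%, 63.5% and 54.2%. For single genes, 21 of 90 alternative values moved by more than 1.5 times. By nearest gene the count was 1 at Erbb2, 2 at Erbb3 and Areg, 3 at Ereg and 5 at Hbegf. At 500 bp or wider it was 6 at Erbb4, 2 at Areg, 5 at Ereg and 7 at Lrig1. With 25 kb extensions it was 5 at Erbb3, 2 at Areg and 3 at Ereg and Tgfa, and with 100 kb 10 at Areg and 16 at Ereg. The covered share was 4.05% at Erbb2 and 2.05% at Ereg with 25 kb, 1.54% at Erbb2 with 100 kb, and 0.615% at Erbb4 and 1.41% at Areg at 500 bp or wider. The density percentile of Erbb4 was 43.2 among genes of similar length. No paired analysis was possible because the list has no value per run or genotype, and leaving out a library was not possible for the same reason.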

Other observations

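Several non-coding genes lay under the regions of the members. Inside Egfr, a region of 1789 bp at chr11:16829539-16831327 covered promoters of the long non-coding RNA gene Egfros, which runs on the opposite strand, and 3 regions lay within 1 kb of an end of Gm39584. Beyond the far end of Egfr, a region of 1299 bp at chr11:16950681-16951979 covered a promoter of the long non-coding RNA gene Eldr as well as of Fbxo48. The region of 905 bp at the downstream start of Errfi1 also covered a promoter of 1700045H11Rik, a long non-coding RNA gene on the minus strand. At Hbegf the 2 regions nearest the upper-coordinate bound lay within 1 kb of an end of Gm41698, and inside Erbb3 the hairpin of Mir6917 lay within the region of 1344 bp.

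The ligand genes Epgn, Ereg, Areg and Btc stand in this order on chromosome 5, from 91027517 to 91402994. That span of 375.5 kb held 22 regions, or 5.86 per 100 kb.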
